A study of Homo sapiens with 12 samples.

Results

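The genes described here are 38 genes of cholesterol and fatty acid synthesis, chosen by symbol out of 60675 annotated genes. The choice was made with earlier results of these data known, so shares set beside those of all genes are a description. All 38 genes were found in the count tables. They comprised 7 mevalonate pathway genes, 12 genes of the later sterol steps, 7 genes of the SREBP system and of sterol handling, 8 fatty acid synthesis genes, and a group of 4 holding the LXR targets ABCA1, ABCG1 and MYLIP together with the lipoprotein receptor LRP8. Their RNA was measured by sequencing in LNCaP, a human prostate cancer line that depends on androgen, and in LNCaP:C4-2 (C4-2), its castration-resistant derivative. All cells, controls included, received 1 nM R1881, a synthetic androgen, for 72 h. In C4-2, R1881 was given with vehicle (DMSO, called R1881 alone), with 50 µM namoline, with TCE-5002, or with both, called the combination. Namoline inhibits the lysine demethylase KDM1A. TCE-5002 inhibits KDM7A and, less potently, the demethylases KDM7B and KDM2A. The study places its action on all of these below 50 µM, so their inhibition cannot be told apart here. In LNCaP, cells had R1881 alone or the combination. The dose of TCE-5002 is uncertain: GEO's description gives 100 µM and the study's methods a lower one. Each of the 6 groups held 2 libraries, which the methods call biological replicates, and each line is a single established culture. The question put to these genes was how each inhibitor, and both together, moved the transcripts of lipid synthesis.

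Cells make cholesterol from acetyl-CoA through mevalonate, farnesyl diphosphate, squalene and lanosterol, and they make fatty acids from the same acetyl-CoA by carboxylation, chain building, elongation and desaturation. The transcription factors SREBP-1 and SREBP-2 drive both branches: when sterols are low, SCAP escorts them out of the endoplasmic reticulum, and when sterols are high the INSIG proteins hold them back. LXR, a receptor for oxysterols, drives cholesterol export genes and SREBF1. Androgens are known to raise lipogenic transcripts in prostate cancer cells.

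Libraries held 14791602 to 20690819 gene counts, and levels are given as CPM, counts scaled to library size. Pearson correlations between replicates, taken over genes as log2 CPM, were 0.976 to 0.996, lowest for the C4-2 TCE-5002 pair, whose difference also followed GC content most closely (Spearman rho across genes -0.80). The libraries labelled LNCaP differed from C4-2 in cell type markers. Over all treatments the 8 luminal markers summed to 326 to 796 CPM there, against 2270 to 4890 CPM in C4-2. With R1881 alone 7 of them were lower there, while KLK3 was higher (397 and 355 CPM against 206 and 228 CPM). The 6 mesenchymal markers summed to 722 to 867 CPM against 63.2 to 102 CPM, most of it from VIM (609 to 732 CPM), and with R1881 alone 4 of them were higher there while COL1A1 was lower (4.89 and 4.0 CPM against 49.5 and 50.8 CPM). The 4 neuroendocrine markers summed to 62.1 to 77.8 CPM against 7.21 to 36.9 CPM. Most of this came from ENO2 (45.0 to 51.4 CPM there, 5.2 to 35.0 CPM in C4-2). The 3 immune markers summed to at most 1.02 CPM in any library. They are called the libraries labelled LNCaP, and what part these markers had in the results was not tested. The count column of the LNCaP combination replicate 1 carries a header that names R1881 and namoline and no TCE-5002, so results of that group are given with and without it. In bulk RNA, fewer cells of a type and less RNA per cell cannot be told apart.

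Promoter sequences of 4 members are shown. MSMO1, ELOVL6 and HSD17B7 stand for response patterns described later, and SREBF2 is shown for the factor it encodes. MSMO1 was higher with each C4-2 treatment, ELOVL6 had the largest change of all members, HSD17B7 changed with the combination and with neither inhibitor alone, and SREBF2 encodes SREBP-2. They run from 250 bases before to 50 bases after the start annotated by RefSeq (GRCh38.p14) and are written 5′ to 3′ on the strand of the gene. Capitals mark matches, on either strand, to a sterol regulatory element written as TCACNCCAC, to the CCAAT box that NF-Y binds, and to the GC box GGGCGG that Sp1 binds. The windows are MSMO1 at chr4:165327419-165327718 (+ strand), ELOVL6 at chr4:110198566-110198865 (- strand), HSD17B7 at chr1:162790452-162790751 (+ strand) and SREBF2 at chr22:41832855-41833154 (+ strand).
MSMO1 promoter: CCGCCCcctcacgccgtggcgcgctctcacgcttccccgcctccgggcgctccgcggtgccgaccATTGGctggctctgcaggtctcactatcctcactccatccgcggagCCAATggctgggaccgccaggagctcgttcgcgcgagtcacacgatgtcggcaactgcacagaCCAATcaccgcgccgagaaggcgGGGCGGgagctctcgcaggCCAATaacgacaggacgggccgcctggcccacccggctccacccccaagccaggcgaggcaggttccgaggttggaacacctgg
ELOVL6 promoter: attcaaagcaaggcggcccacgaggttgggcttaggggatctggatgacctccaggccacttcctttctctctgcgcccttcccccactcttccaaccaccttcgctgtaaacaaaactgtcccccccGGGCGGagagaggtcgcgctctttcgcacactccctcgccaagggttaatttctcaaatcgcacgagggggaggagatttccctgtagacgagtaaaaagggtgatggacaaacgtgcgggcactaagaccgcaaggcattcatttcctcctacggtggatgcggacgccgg
HSD17B7 promoter: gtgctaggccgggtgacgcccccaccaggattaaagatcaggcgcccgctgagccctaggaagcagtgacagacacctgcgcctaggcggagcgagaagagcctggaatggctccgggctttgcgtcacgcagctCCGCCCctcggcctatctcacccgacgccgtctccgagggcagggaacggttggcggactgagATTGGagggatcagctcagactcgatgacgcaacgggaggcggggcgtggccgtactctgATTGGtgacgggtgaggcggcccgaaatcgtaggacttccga
SREBF2 promoter: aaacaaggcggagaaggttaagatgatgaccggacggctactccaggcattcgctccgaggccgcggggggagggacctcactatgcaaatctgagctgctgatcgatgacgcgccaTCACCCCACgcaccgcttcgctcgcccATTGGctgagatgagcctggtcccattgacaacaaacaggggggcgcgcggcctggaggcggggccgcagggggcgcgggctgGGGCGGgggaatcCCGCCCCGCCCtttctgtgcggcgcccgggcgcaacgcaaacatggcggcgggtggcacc
The MSMO1 window held 4 CCAAT boxes and 2 GC boxes, the ELOVL6 window 1 GC box, the HSD17B7 window 2 CCAAT boxes and 1 GC box, and the SREBF2 window the sterol element, 1 CCAAT box and 3 GC boxes, a pair of them overlapping.

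Promoters were at hand for 33 members, and ACAT2, FDFT1, SQLE, FASN and ABCG1 had no entry. CCAAT boxes were found in 19 of the 33 windows (57.6%), against 35.7% of 27305 annotated promoters and 36.4% of the 15842 promoters of protein-coding genes. GC boxes were found in 30 of 33 (90.9%), against 44.6% of all and 58.5% of protein-coding promoters. The sterol element in this exact form was found in 1 of 33 (3.03%), the SREBF2 window shown above, against 1.15% and 1.17%. By role, CCAAT boxes were found in 4 of 6 mevalonate, 8 of 10 sterol, 3 of 7 SREBP system and 3 of 7 fatty acid promoters. In the last group they were found in 1 of 3 promoters (ABCA1, MYLIP and LRP8 had entries). A match describes letters in the window and was not tested as a binding site.

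Namoline raised most of these genes in C4-2. A gene was called higher or lower, written as rose or fell, at an edgeR adjusted p under 0.05 over all genes tested, and past the threshold when it also moved by 1 or more on the log2 scale, which is 2-fold. With namoline 29 of the 38 members rose (76.3%, against 18.7% of 17702 genes tested) and none fell (against 16.3%), and 16 were past the threshold upward (42.1%, against 5.17% of all genes) and none downward (against 6.88%). The median log2 fold change of the members was 0.92, and that of all genes tested was 0.00. By role, all 8 fatty acid synthesis genes rose, as did 6 of 7 mevalonate genes, 9 of 12 sterol genes, 5 of 7 SREBP system genes and LRP8 in the last group. The 9 members that were not past the adjusted p lay between -0.19 (ABCG1) and 0.34 (MYLIP). Of the 29, 25 kept their adjusted p under every alternative fit. The others were TM7SF2, NSDHL, SREBF1 and SREBF2, each lost when a single library was left out. For TM7SF2 this was R1881 replicate 1 and for SREBF1 namoline replicate 2. For NSDHL it was either of those libraries, and for SREBF2 either R1881 library or namoline replicate 2.

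TCE-5002 raised fewer members. With it 17 rose (44.7%, against 19.9% of all genes tested) and 2 fell (5.26%, against 16.7%), while 6 were past the threshold upward (15.8%, against 5.04%) and 1 downward (2.63%, against 6.80%). The median was 0.30, and 0.00 over all genes. Of the 8 fatty acid synthesis genes 7 rose, against 1 of 7 mevalonate genes, 6 of 12 sterol genes and 2 of 7 SREBP system genes. Past the threshold upward were FASN, ELOVL6, FADS2, EBP, TM7SF2 and LRP8. LBR and ABCA1 fell. Of the 19 members with an adjusted p under 0.05, 12 kept it under every alternative. ACAT2, FDFT1, LBR, INSIG1, STARD4, ACLY and ABCA1 lost it in at least 1, and without either TCE-5002 library in turn the number past the threshold was 6 (without replicate 1) and 8 (without replicate 2).

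With the combination 22 members rose (57.9%, against 24.8% of all genes tested) and 6 fell (15.8%, against 25.6%). Past the threshold upward were 7 (18.4%, against 8.87%), namely HMGCS1, MSMO1, HSD17B7, INSIG1, ELOVL6, FADS1 and ABCG1, and none was past it downward (against 12.8%). The median was 0.52, against -0.03 over all genes. The 6 that fell were PMVK, LBR, SREBF1, INSIG2, ACACA and ACLY, with log2 fold changes from -0.95 (LBR) to -0.35 (ACACA). Of the 28 members with an adjusted p under 0.05, 20 kept it under every alternative. NSDHL, EBP, SC5D, INSIG2, STARD4, FASN, ACACA and ACLY lost it in at least 1. The same control libraries stand behind all 3 comparisons.

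**Figure D1:**
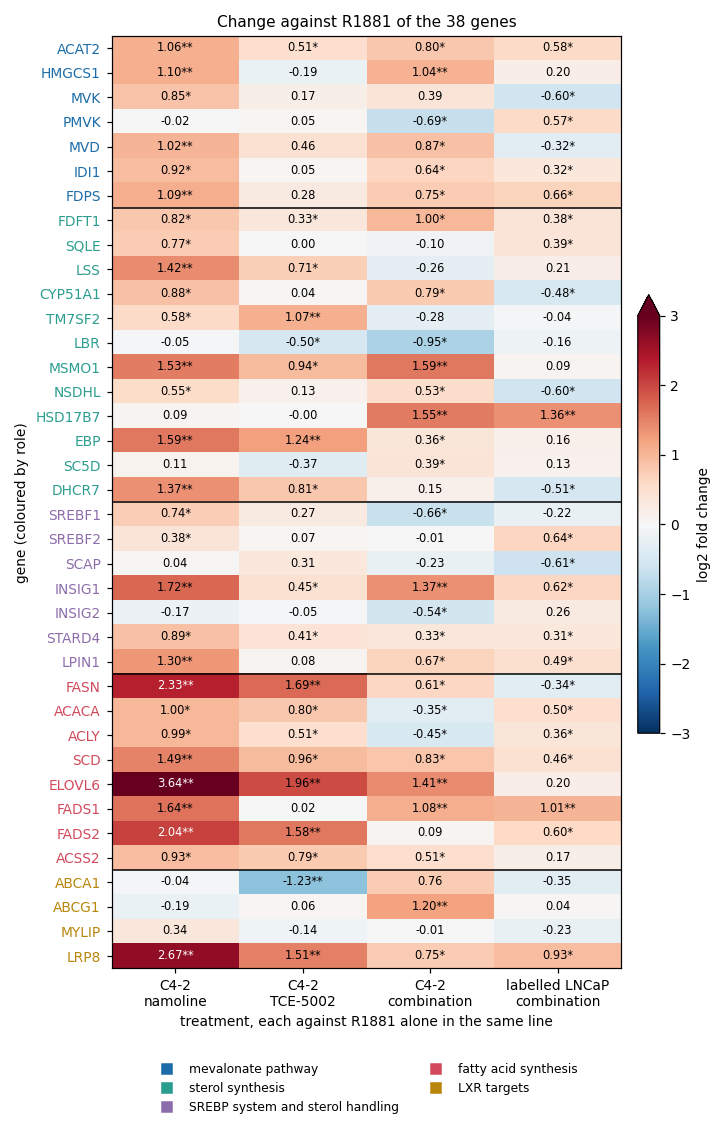
Log2 fold change of each of the 38 genes (rows, label colour by role) against R1881 alone for 4 treatments (columns); 1 star marks an edgeR adjusted p under 0.05 and 2 stars also a change of 2-fold or more. The namoline column is highest at ELOVL6 (3.64), and HSD17B7 is near 0 with either inhibitor alone and at 1.55 with the combination.

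Together the members took up 0.635% and 0.707% of all gene counts in the C4-2 R1881 libraries, 1.54% and 1.90% with namoline, 1.11% and 1.3% with TCE-5002 and 0.822% and 0.797% with the combination. FASN alone supplied 0.120% and 0.153% with R1881 and 0.511% and 0.724% with namoline. In the libraries labelled LNCaP the members took up 0.382% and 0.377% with R1881 and 0.441% and 0.385% with the combination.

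Among the mevalonate pathway genes, HMGCS1, which makes HMG-CoA, was at 96.9 and 99.5 CPM with R1881, 209 and 215 CPM with namoline, 95.9 and 76.3 CPM with TCE-5002 and 207 and 203 CPM with the combination. The namoline and combination libraries all lay above the R1881 pair, and both TCE-5002 libraries lay below it. The log2 fold change was 1.10 with namoline (SE 0.12, adjusted p 8.86e-06, edgeR), -0.19 with TCE-5002 (SE 0.12, adjusted p 0.234, edgeR) and 1.04 with the combination (SE 0.12, adjusted p 7.37e-06, edgeR). FDPS, which makes farnesyl diphosphate, was at 62.4 and 65.8 CPM with R1881, 135 and 140 CPM with namoline, 81.6 and 74.4 CPM with TCE-5002 and 114 and 105 CPM with the combination. It rose by 1.09 with namoline (SE 0.11, adjusted p 4.5e-06, edgeR) and by 0.75 with the combination (SE 0.11, adjusted p 6.58e-05, edgeR), and its TCE-5002 value was 0.28 (SE 0.11, adjusted p 0.0555, edgeR). FDPS shares 18.6% of its exon length with the antisense gene RUSC1-AS1 and has pseudogene copies, so its counts are uncertain.

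ACAT2, the cytosolic thiolase that makes acetoacetyl-CoA, was at 25 and 21.6 CPM with R1881, 46.8 and 51.9 CPM with namoline, 35.1 and 31.4 CPM with TCE-5002 and 40.9 and 42.2 CPM with the combination. All 6 treated libraries lay above the R1881 pair. It rose by 1.06 with namoline (edgeR adjusted p 2.75e-05), 0.51 with TCE-5002 and 0.80 with the combination. The namoline value came to 0.96 without C4-2 R1881 replicate 2 and 0.97 without namoline replicate 2, and 43.0% of the ACAT2 exon length overlaps a gene on the opposite strand in counts made without strand. MVD, the decarboxylase of the pathway, was at 16.5 and 15.8 CPM with R1881, 27.9 and 38.3 CPM with namoline, 17.2 and 27.3 CPM with TCE-5002 and 27.5 and 32.6 CPM with the combination. It rose by 1.02 with namoline (SE 0.20, adjusted p 0.00142, edgeR), which was 0.75 after correction for GC content, 0.98 without R1881 replicate 2 and 0.76 without namoline replicate 2.

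The kinase PMVK went the other way. It was at 47.7 and 41.1 CPM with R1881, 44.5 and 43.7 CPM with namoline, 44.7 and 47.4 CPM with TCE-5002 and 28.4 and 27.7 CPM with the combination, where both libraries lay below all others in C4-2. With the combination it fell by 0.69 (SE 0.13, adjusted p 0.000407, edgeR). MVK, the preceding kinase, and IDI1, the isomerase, rose by 0.85 and 0.92 with namoline, and with the combination IDI1 rose by 0.64 while MVK had 0.39 (edgeR adjusted p 0.0603).

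The 12 sterol genes fell into separate patterns across the C4-2 groups. MSMO1, a C4-methyl sterol oxidase, was at 26.5 and 25 CPM with R1881, 75.6 and 75.2 CPM with namoline, 57.0 and 41.9 CPM with TCE-5002 and 75.1 and 82.6 CPM with the combination. Every treated library lay above the R1881 pair. It rose by 1.53 with namoline (SE 0.14, adjusted p 2.12e-06, edgeR), 0.94 with TCE-5002 (SE 0.14, adjusted p 0.000183, edgeR) and 1.59 with the combination (SE 0.14, adjusted p 9.1e-07, edgeR). FDFT1, the squalene synthase, rose by 0.82, 0.33 and 1.00 in the same order, the last just under 2-fold. The TCE-5002 value of FDFT1 lost its adjusted p in several alternatives.

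EBP, LSS and DHCR7 rose with each inhibitor alone, and their levels with both together lay nearer to R1881. EBP, the sterol isomerase (chromosome X, 48521158 to 48528716 in the GRCh38 annotation of the counts), was at 31.5 and 30.8 CPM with R1881, 90.9 and 98.1 CPM with namoline, 75.7 and 71.8 CPM with TCE-5002 and 39.7 and 41.4 CPM with the combination. The single-inhibitor libraries lay above the combination pair, and that pair above R1881. EBP rose by 1.59 with namoline (SE 0.11, adjusted p 1.58e-07, edgeR), 1.24 with TCE-5002 (SE 0.11, adjusted p 2.39e-06, edgeR) and 0.36 with the combination (SE 0.11, adjusted p 0.0177, edgeR), the last lost when any of the 4 libraries compared was left out. LSS, which closes squalene epoxide to lanosterol, was at 86.5 and 92.9 CPM with R1881, 208 and 275 CPM with namoline, 127 and 166 CPM with TCE-5002 and 78.6 and 74.1 CPM with the combination. Both combination libraries lay below the R1881 pair, at -0.26 on the log2 scale (SE 0.15, adjusted p 0.164, edgeR), against 1.42 with namoline and 0.71 with TCE-5002. DHCR7, the last reductase, was at 83.8 and 97.1 CPM with R1881, 217 and 255 CPM with namoline, 151 and 166 CPM with TCE-5002 and 95.6 and 108 CPM with the combination. It rose by 1.37 and 0.81 with the single inhibitors, and the combination value was 0.15 (SE 0.12, adjusted p 0.343, edgeR).

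HSD17B7, the 3-keto sterol reductase (chromosome 1, 162790702 to 162812817), was at 25.9 and 22.8 CPM with R1881, 26.0 and 26.6 CPM with namoline, 25.9 and 22.9 CPM with TCE-5002 and 76.1 and 69.1 CPM with the combination. The R1881 and TCE-5002 pairs overlapped, the namoline pair lay just above them, and the combination pair lay far above all 6. Its log2 fold change was 0.09 with namoline (edgeR adjusted p 0.632), 0.00 with TCE-5002 (edgeR adjusted p 1) and 1.55 with the combination (SE 0.13, adjusted p 5.62e-07, edgeR), and the combination exceeded namoline by 1.46 (edgeR adjusted p 4.41e-07) and TCE-5002 by 1.55 (edgeR adjusted p 2.8e-07). HSD17B7 has pseudogene copies, so its counts are uncertain. TM7SF2, a C14 sterol reductase, was at 62.6 and 74.1 CPM with R1881, 104 and 103 CPM with namoline, 120 and 167 CPM with TCE-5002 and 56.0 and 58.7 CPM with the combination. It was highest with TCE-5002, where it rose by 1.07 (SE 0.15, adjusted p 7.35e-05, edgeR), which was 0.74 after the GC correction, 0.96 without R1881 replicate 1 and 0.82 without TCE-5002 replicate 2. LBR, the other C14 reductase and a nuclear envelope protein, fell by 0.50 with TCE-5002 and by 0.95 with the combination, and its namoline value was -0.05.

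CYP51A1, the lanosterol demethylase, was at 14.4 and 14.7 CPM with R1881, 23.5 and 30.6 CPM with namoline, 12.9 and 17.1 CPM with TCE-5002 and 23.4 and 27.8 CPM with the combination. It rose by 0.88 with namoline and 0.79 with the combination, and 78.8% of its exon length is shared with LRRD1 on the same strand, so its counts are uncertain. NSDHL, a C4 decarboxylase, was at 22.5 and 24.4 CPM with R1881, 34.2 and 34.9 CPM with namoline, 27.1 and 24.0 CPM with TCE-5002 and 32.7 and 36.3 CPM with the combination. It rose by 0.55 and 0.53 with namoline and the combination. SQLE, the squalene epoxidase, rose by 0.77 with namoline and had 0.00 with TCE-5002 and -0.10 with the combination. SC5D, a sterol desaturase, had 0.11 with namoline, -0.37 with TCE-5002 (edgeR adjusted p 0.0503) and 0.39 with the combination (edgeR adjusted p 0.0306), the last lost with any 1 compared library left out.

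In the SREBP system, INSIG1, which retains SCAP in the endoplasmic reticulum and is itself an SREBP target, was at 170 and 191 CPM with R1881, 552 and 651 CPM with namoline, 274 and 220 CPM with TCE-5002 and 444 and 503 CPM with the combination. All treated libraries lay above the R1881 pair. It rose by 1.72 with namoline (SE 0.13, adjusted p 4.06e-07, edgeR), 0.45 with TCE-5002 (SE 0.13, adjusted p 0.0154, edgeR) and 1.37 with the combination (SE 0.13, adjusted p 1.75e-06, edgeR). Its relative INSIG2 had -0.17, -0.05 and -0.54 in the same order. SREBF1, which encodes SREBP-1, was at 465 and 551 CPM with R1881, 762 and 958 CPM with namoline, 498 and 728 CPM with TCE-5002 and 321 and 335 CPM with the combination. It was highest with namoline and lowest with the combination, with log2 fold changes of 0.74 (SE 0.16, adjusted p 0.00271, edgeR) and -0.66 (SE 0.16, adjusted p 0.00399, edgeR), and 0.27 with TCE-5002 (SE 0.16, adjusted p 0.207, edgeR). SREBF2, which encodes SREBP-2, had 0.38, 0.07 and -0.01, the first lost without either R1881 library or namoline replicate 2. SCAP had 0.04, 0.31 and -0.23, none past the adjusted p.

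LPIN1, a phosphatidate phosphatase and SREBP target, was at 86.9 and 98.2 CPM with R1881, 212 and 248 CPM with namoline, 101 and 94.4 CPM with TCE-5002 and 153 and 146 CPM with the combination. The TCE-5002 pair overlapped the R1881 pair, and the other treated pairs lay above both. LPIN1 rose by 1.3 with namoline (SE 0.12, adjusted p 1.56e-06, edgeR) and 0.67 with the combination (SE 0.12, adjusted p 0.000285, edgeR). STARD4, a sterol carrier, rose by 0.89 with namoline, and by 0.41 and 0.33 with TCE-5002 and the combination, values that lost their adjusted p with single libraries left out.

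With each inhibitor alone in C4-2 the largest change lay among the fatty acid synthesis genes. With the combination the sterol genes MSMO1 (1.59) and HSD17B7 (1.55) moved most. FASN, the fatty acid synthase (chromosome 17, 82078333 to 82098332), was at 1140 and 1470 CPM with R1881, 5440 and 7860 CPM with namoline, 3460 and 4950 CPM with TCE-5002 and 2160 and 1890 CPM with the combination. The groups did not overlap, and the combination pair lay between R1881 and the single inhibitors. FASN rose by 2.33 with namoline (SE 0.20, adjusted p 1e-06, edgeR), 1.69 with TCE-5002 (SE 0.20, adjusted p 2.08e-05, edgeR) and 0.61 with the combination (SE 0.19, adjusted p 0.016, edgeR), the last at adjusted p 0.06 under DESeq2 and at edgeR adjusted p 0.156 without R1881 replicate 1 and 0.1 without combination replicate 1. After the GC correction the FASN values were 2.02 with namoline and 1.29 with TCE-5002. ELOVL6, which extends palmitate, was at 5.57 and 5.20 CPM with R1881, 62.3 and 74.3 CPM with namoline, 25.6 and 16.3 CPM with TCE-5002 and 17.1 and 12 CPM with the combination. Every treated library lay above the R1881 pair, and namoline gave the highest levels. ELOVL6 rose by 3.64 with namoline (SE 0.23, adjusted p 5.53e-08, edgeR), 1.96 with TCE-5002 (SE 0.23, adjusted p 2.08e-05, edgeR) and 1.41 with the combination (SE 0.23, adjusted p 0.00018, edgeR).

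The desaturases FADS1 and FADS2, neighbours on chromosome 11 (61799625 to 61829318 and 61792980 to 61867354) that act in the same polyunsaturated fatty acid pathway, moved differently. FADS1 was at 178 and 180 CPM with R1881, 511 and 617 CPM with namoline, 187 and 176 CPM with TCE-5002 and 373 and 397 CPM with the combination. FADS2 was at 393 and 478 CPM with R1881, 1530 and 2090 CPM with namoline, 1200 and 1400 CPM with TCE-5002 and 481 and 464 CPM with the combination. For FADS1 the TCE-5002 pair spanned the R1881 pair and the combination pair lay above both, whereas for FADS2 the TCE-5002 pair lay above R1881 and the combination pair overlapped it. FADS1 rose by 1.64 with namoline (SE 0.12, adjusted p 1.48e-07, edgeR) and 1.08 with the combination (SE 0.12, adjusted p 3.88e-06, edgeR), with 0.02 under TCE-5002. FADS2 rose by 2.04 with namoline (SE 0.15, adjusted p 2.72e-07, edgeR) and 1.58 with TCE-5002 (SE 0.15, adjusted p 3.94e-06, edgeR), with 0.09 under the combination (SE 0.15, adjusted p 0.622, edgeR). The genes share 490 exon bases on opposite strands, and whether the difference between FADS1 and FADS2 was itself larger than their spread was not tested.

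ACACA, which makes malonyl-CoA, was at 704 and 702 CPM with R1881, 1380 and 1460 CPM with namoline, 1220 and 1220 CPM with TCE-5002 and 587 and 535 CPM with the combination. ACLY, which makes cytosolic acetyl-CoA from citrate, was at 331 and 352 CPM, 622 and 750 CPM, 497 and 475 CPM and 252 and 256 CPM in the same order. For both genes each single inhibitor lay above R1881 and the combination below it. ACACA rose by 1.00 with namoline, just under 2-fold (SE 0.11, adjusted p 9.72e-06, edgeR), and 0.80 with TCE-5002, and ACLY rose by 0.99 and 0.51. With the combination ACACA fell by 0.35 (edgeR adjusted p 0.015) and ACLY fell by 0.45 (edgeR adjusted p 0.00425), values that lost their adjusted p with some single libraries left out.

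SCD, the stearoyl-CoA desaturase, was at 874 and 975 CPM with R1881, 2450 and 2790 CPM with namoline, 1970 and 1620 CPM with TCE-5002 and 1540 and 1800 CPM with the combination. It rose by 1.49 with namoline (SE 0.13, adjusted p 1.56e-06, edgeR), 0.96 with TCE-5002 and 0.83 with the combination, and the TCE-5002 and combination libraries overlapped. ACSS2, which makes acetyl-CoA from acetate, was at 61.5 and 66.5 CPM with R1881, 113 and 134 CPM with namoline, 115 and 106 CPM with TCE-5002 and 88.8 and 96.2 CPM with the combination. It rose by 0.93, 0.79 and 0.51 in that order.

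**Figure D2:**
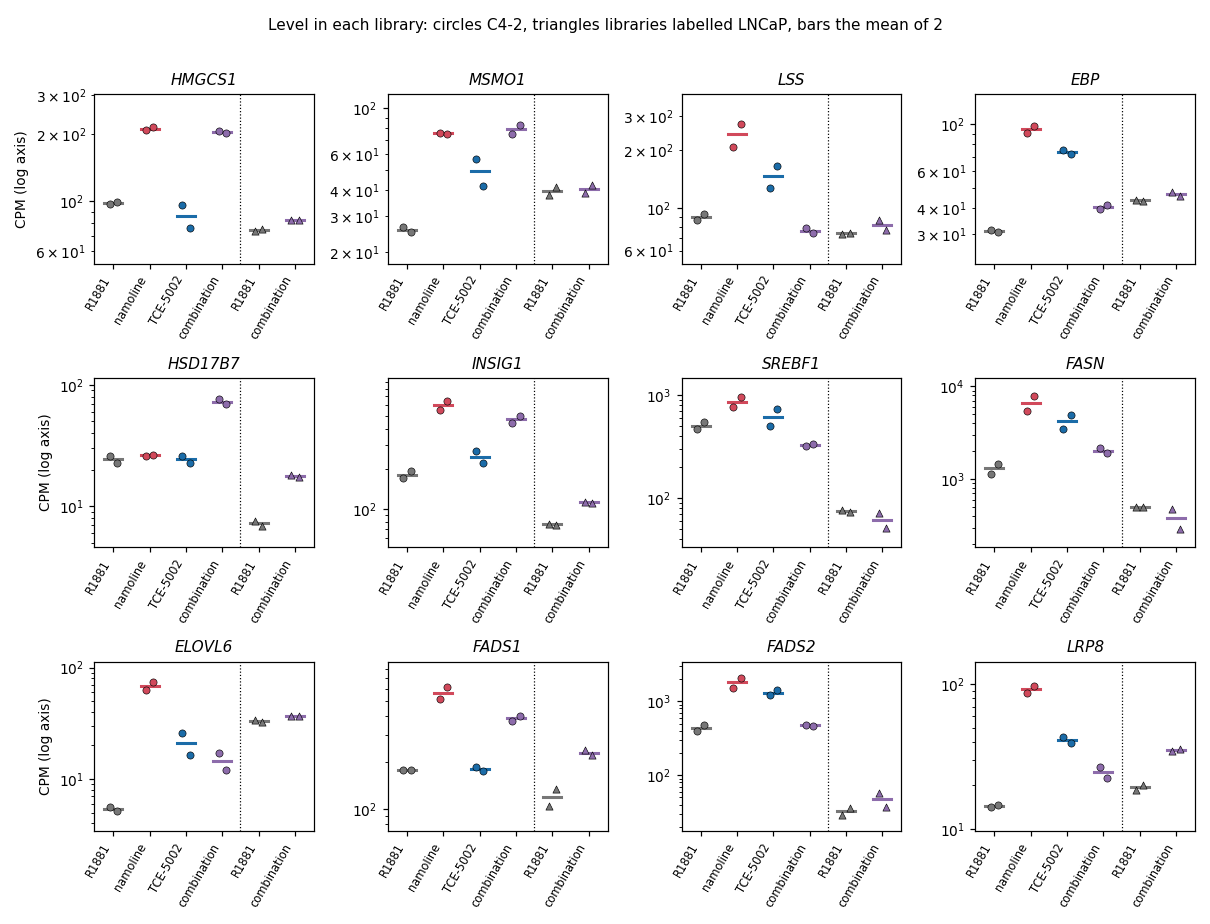
Level of 12 of the genes in each library as CPM on a log axis, for 4 C4-2 groups (circles) and 2 groups labelled LNCaP (triangles), with bars at the mean of 2 libraries. FASN, ELOVL6, FADS2, EBP and LRP8 are highest with namoline in C4-2, and HSD17B7 stands at 76.1 and 69.1 CPM with the combination against 22.8 to 26.6 CPM in the other C4-2 libraries.

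Of the LXR targets, ABCG1, a cholesterol exporter, was at 10.1 and 12.1 CPM with R1881, 11.6 and 7.97 CPM with namoline, 11.4 and 11.7 CPM with TCE-5002 and 25.2 and 26.6 CPM with the combination. The first 6 libraries overlapped and the combination pair lay above them. It rose by 1.20 with the combination (SE 0.18, adjusted p 7.53e-05, edgeR), against -0.19 and 0.06 with the single inhibitors. ABCA1, the exporter that loads apolipoprotein A-I, was at 1.26 and 1.62 CPM with R1881, 1.77 and 1.02 CPM with namoline, 0.414 and 0.804 CPM with TCE-5002 and 2.33 and 2.63 CPM with the combination. At these low levels it fell by 1.23 with TCE-5002 (SE 0.44, adjusted p 0.0399, edgeR), a call lost under DESeq2 (adjusted p 0.0795), in the fit of the 4 libraries compared and without either R1881 library or TCE-5002 replicate 1. Its combination value was 0.76 (edgeR adjusted p 0.0936). MYLIP, the ligase that degrades lipoprotein receptors, was not past the adjusted p in these 3 comparisons, with values from -0.14 to 0.34.

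LRP8, a receptor for apolipoprotein E that MYLIP targets, is not itself known chiefly as an LXR target. It was at 14.2 and 14.7 CPM with R1881, 87.5 and 97.8 CPM with namoline, 43.2 and 39.1 CPM with TCE-5002 and 26.7 and 22.6 CPM with the combination. The 4 groups did not overlap. LRP8 rose by 2.67 with namoline (SE 0.14, adjusted p 1.48e-08, edgeR), 1.51 with TCE-5002 (SE 0.14, adjusted p 2.29e-06, edgeR) and 0.75 with the combination (SE 0.14, adjusted p 0.000447, edgeR).

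The combination was then set against each inhibitor alone. Relative to namoline, 10 members were past the threshold downward (26.3%, against 14.7% of all genes tested), namely LSS, EBP, DHCR7, SREBF1, FASN, ACACA, ACLY, ELOVL6, FADS2 and LRP8, and 2 upward (5.26%, against 12.8%), HSD17B7 and ABCG1. The median was -0.45, against -0.04 over all genes. Values of the 8 fatty acid genes ran from -2.24 (ELOVL6) to -0.42 (ACSS2), with a median of -1.40. Those of the 7 mevalonate genes ran from -0.67 to -0.06, with a median of -0.28. Past the threshold downward were 5 of the 8 fatty acid genes and none of the 7 mevalonate genes. Relative to TCE-5002, 5 members were past the threshold upward (13.2%, against 11.7%), HMGCS1, HSD17B7, FADS1, ABCA1 and ABCG1, and 4 downward (10.5%, against 14.3%), TM7SF2, FASN, ACACA and FADS2. These shares lay near those of all genes, and the median was -0.08. The FASN difference from TCE-5002, -1.08, was -0.66 after the GC correction and -0.81 without TCE-5002 replicate 2.

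The interaction asks whether the effects of the inhibitors added up, and is the log2 change with the combination less the sum of the 2 single log2 changes. It was past the threshold downward for 13 members (34.2%, against 18.6% of all genes tested) and upward for 3 (7.89%, against 16.7%), with a median of -0.72 against -0.01 over all genes. A negative value means that the level with both inhibitors was under the sum of the single effects. It was past the threshold for 7 of 8 fatty acid genes, all downward, with a median of -2.05 in that group. The values were -4.19 for ELOVL6 (SE 0.31, adjusted p 5.86e-08, edgeR), -3.53 for FADS2 (SE 0.21, adjusted p 1.31e-08, edgeR), -3.43 for LRP8 (SE 0.19, adjusted p 5.46e-09, edgeR) and -3.42 for FASN (SE 0.28, adjusted p 1.74e-07, edgeR). EBP (-2.47), LSS (-2.38), ACACA (-2.14), DHCR7 (-2.04), ACLY (-1.95), TM7SF2 (-1.93), SREBF1 (-1.67), SCD (-1.62) and ACSS2 (-1.22) followed, each at an edgeR adjusted p of at most 2.68e-05. None of the 7 mevalonate genes was past the threshold, with values from -0.77 (ACAT2) to 0.13 (HMGCS1). Upward were ABCA1 at 2.03 (SE 0.57, adjusted p 0.00771, edgeR), HSD17B7 at 1.46 (SE 0.19, adjusted p 1.28e-05, edgeR) and ABCG1 at 1.33 (SE 0.26, adjusted p 0.000545, edgeR). With 1 library left out the number past the threshold ran from 16 to 19.

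**Figure D3:**
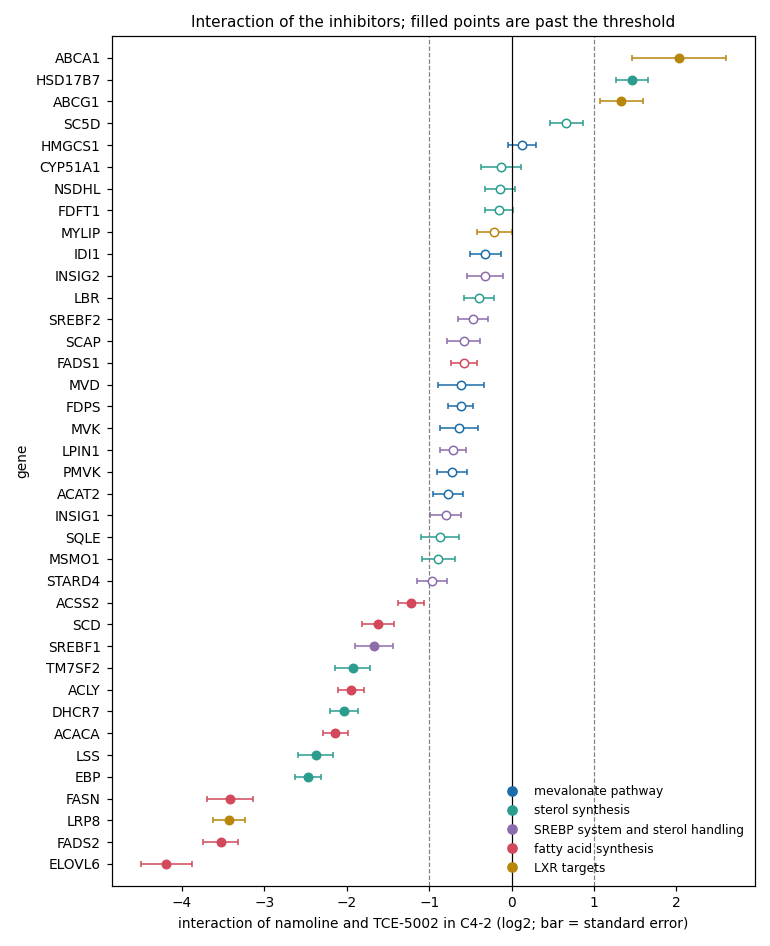
Interaction of namoline and TCE-5002 in C4-2 on the log2 scale with its standard error for each of the 38 genes, ordered by value and coloured by role; filled points are past the threshold and dashed lines stand at -1 and 1. Points run from -4.19 (ELOVL6) to 2.03 (ABCA1), and 7 of the 8 fatty acid genes lie left of -1.

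In LNCaP by label, fewer members were past the threshold. There 17 members rose (44.7%, against 28.0% of 17565 genes tested) and 7 fell (18.4%, against 28.2%), with a median of 0.21 against 0.00 over all genes. Past the threshold were 2 upward (5.26%, against 7.44%) and 0 downward (against 11.3%), a share under the background. Of these 24, 15 kept their adjusted p under every alternative, and MVK, MVD, IDI1, FDFT1, SQLE, CYP51A1, STARD4, FASN and FADS2 lost it in at least 1. Without the combination library whose header differs from its label, 22 of the 24 members kept an adjusted p under 0.05, MVD and FADS2 lost it, and SREBF1 gained it. HSD17B7 was at 7.58 and 6.91 CPM with R1881 and 18.2 and 17.6 CPM with the combination, a rise of 1.36 (SE 0.16, adjusted p 1.79e-08, edgeR), or 1.33 without that library. FADS1 was at 105 and 135 CPM with R1881 and 240 and 224 CPM with the combination, a rise of 1.01 (SE 0.11, adjusted p 3.12e-09, edgeR), or 0.96 without that library and 0.84 without R1881 replicate 1.

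FASN gave no stable direction there. It was at 501 and 501 CPM with R1881 and 472 and 289 CPM with the combination, and its log2 change was -0.34 (SE 0.14, adjusted p 0.0338, edgeR) that was -0.03 without combination replicate 2, -0.74 without combination replicate 1 and 0.29 after the GC correction (edgeR adjusted p 0.0128). MVD likewise went from -0.32 to 0.22 with the GC correction. Among the others, LRP8 rose by 0.93, FDPS by 0.66, SREBF2 by 0.64, INSIG1 by 0.62, ACAT2 by 0.58, PMVK by 0.57, ACACA by 0.50 and SCD by 0.46. MVK fell by 0.60 (-0.25 after the GC correction, edgeR adjusted p 0.123), NSDHL by 0.60, SCAP by 0.61 and DHCR7 by 0.51.

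The effect of the combination differed between the lines for 8 members past the threshold, 7 with the more positive value in C4-2 (18.4%, against 11.4% of 19763 genes tested) and 1 with the more negative (2.63%, against 13.9%). The median difference, C4-2 minus labelled LNCaP, was 0.17, against -0.10 over all genes. MSMO1 was at 38 and 41.5 CPM with R1881 and 38.7 and 42.4 CPM with the combination where the label was LNCaP, and those pairs overlapped, so its C4-2 rise of 1.59 stood against 0.09 and the difference was 1.44 (SE 0.14, adjusted p 1.63e-08, edgeR). PMVK was at 26.2 and 30.4 CPM and then 40.2 and 40.3 CPM, higher where C4-2 was lower, a difference of -1.31 (SE 0.16, adjusted p 3.13e-07, edgeR). NSDHL went from 46.3 and 47.0 CPM to 29.9 and 29.3 CPM, a difference of 1.08 (SE 0.15, adjusted p 1.95e-06, edgeR).

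For the remaining 5, ELOVL6 was at 33.7 and 32.7 CPM and then 36.5 and 36.7 CPM, a difference of 1.16 (SE 0.21, adjusted p 7.22e-05, edgeR) that was 0.87 without C4-2 combination replicate 1. CYP51A1 was at 12.7 and 12.9 CPM and then 10.7 and 7.10 CPM, with a difference of 1.22 (SE 0.22, adjusted p 6.99e-05, edgeR) that was 0.94 without LNCaP combination replicate 2. MVD was at 26.9 and 23.9 CPM and then 19.3 and 19.7 CPM, with a difference of 1.14 (SE 0.17, adjusted p 7.88e-06, edgeR), or 0.65 after the GC correction. In each of these genes the libraries labelled LNCaP moved less than C4-2 or the opposite way. ABCG1 was at 10.3 and 11.7 CPM and then 11.4 and 10.3 CPM, with a difference of 1.11 (SE 0.20, adjusted p 6.21e-05, edgeR), or 0.98 without C4-2 R1881 replicate 1. ABCA1 was at 5.12 and 5.60 CPM and then 4.78 and 3.35 CPM, with a difference of 1.07 (SE 0.39, adjusted p 0.0258, edgeR) that lost its call under DESeq2 and with any of 3 libraries left out. Without the library whose header differs from its label, the differences were 1.36 for MSMO1, -1.33 for PMVK, 1.08 for NSDHL, 1.13 for ELOVL6, 1.51 for CYP51A1, 1.10 for MVD, 1.16 for ABCG1 and 1.32 for ABCA1, all past the threshold, and FASN (1.28) and MVK (1.04) came past it. HSD17B7 (0.13, edgeR adjusted p 0.564) and FADS1 (0.02, edgeR adjusted p 0.95), the genes past the threshold in both lines, had differences within their errors.

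**Figure D4:**
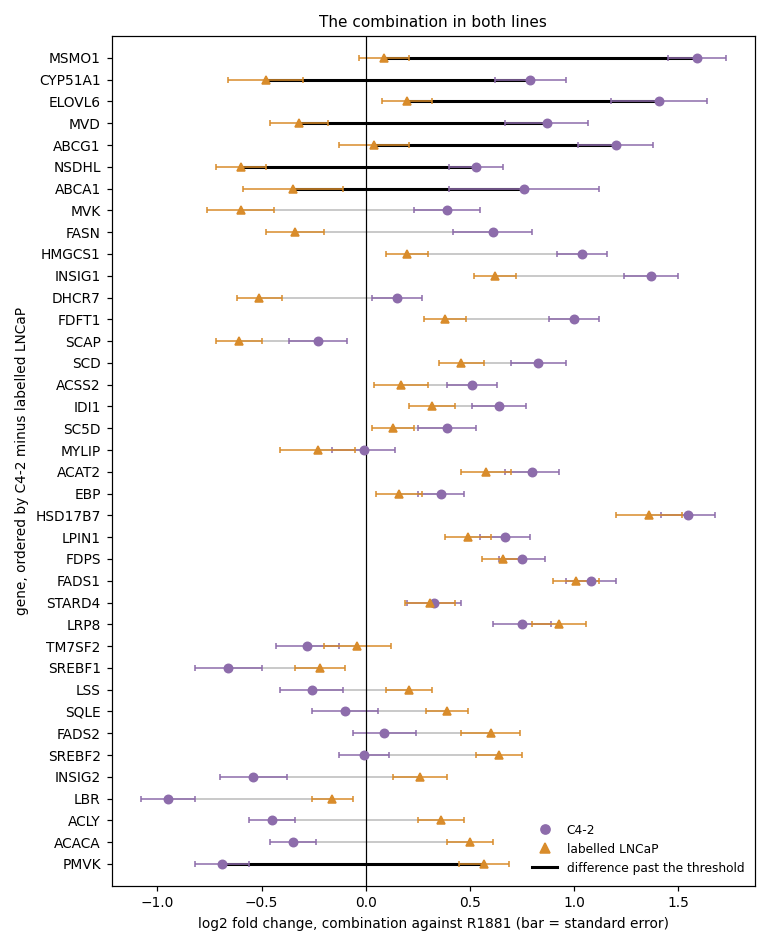
Log2 fold change of the combination against R1881, with standard errors, in C4-2 (circles) and in the libraries labelled LNCaP (triangles) for each of the 38 genes, ordered by the difference between them; black lines mark the 8 differences past the threshold. MSMO1 is at 1.59 and 0.09, PMVK at -0.69 and 0.57, and HSD17B7 and FADS1 lie above 1 in both.

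The starting levels with R1881 alone also differed. Per gene length (RPKM, which is CPM per kilobase of exon length), C4-2 levels ran from 172 RPKM for SCD and 144 RPKM for FASN down to 0.738 RPKM for ELOVL6 and 0.127 RPKM for ABCA1. In the libraries labelled LNCaP SCD (115 RPKM) and FASN (55.3 RPKM) were again the highest 2 members, followed by LBR (46.3 RPKM) and ACLY (44.6 RPKM). Relative to C4-2, 10 members were lower past the threshold (26.3%, against 24.3% of all genes tested) and 3 higher (7.89%, against 26.2%), and the share lower was near that of all genes. Lower were FADS2 (-3.78), SREBF1 (-2.80), ACACA (-2.24), TM7SF2 (-1.92), HSD17B7 (-1.78), FASN (-1.41), ACSS2 (-1.38), LPIN1 (-1.28), INSIG1 (-1.27) and FDFT1 (-1.18). Higher were ELOVL6 (2.59), SQLE (1.95) and ABCA1 (1.88). Line and starting level therefore cannot be told apart behind the difference in response.

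**Figure D5:**
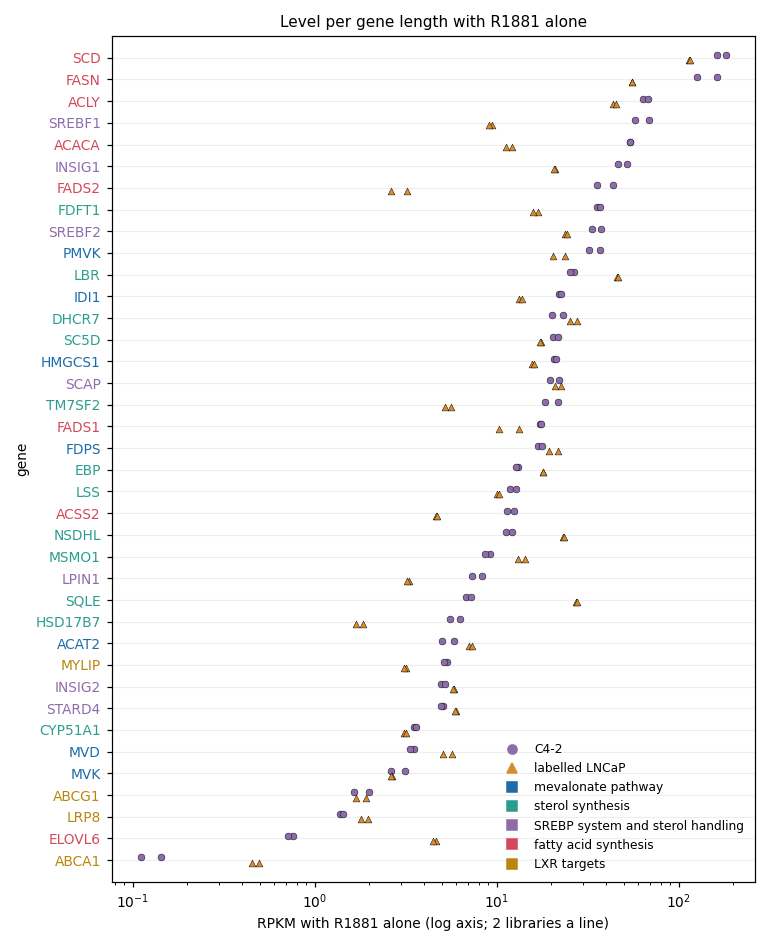
RPKM of each of the 38 genes with R1881 alone, on a log axis, with both libraries of C4-2 (circles) and both labelled LNCaP (triangles), ordered by the C4-2 mean and with label colour by role. FADS2, SREBF1 and ACACA lie far lower in the libraries labelled LNCaP, and ELOVL6, SQLE and ABCA1 higher.

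Beyond the 38 members, 47 further genes of the pathways were counted, of which 46 were tested in C4-2. With namoline 19 rose (41.3%, against 18.7% of all genes tested) and 4 fell (8.70%, against 16.3%), with 6 past the threshold upward (13.0%, against 5.17%). With TCE-5002 18 rose (39.1%, against 19.9%) and 3 fell (6.52%, against 16.7%), with 8 past it upward (17.4%, against 5.04%). With the combination 15 rose (32.6%, against 24.8%) and 9 fell (19.6%, against 25.6%), with 3 past it upward (6.52%, against 8.87%) and 1 downward (2.17%, against 12.8%). For LNCaP by label 14 rose (29.8%, against 28.0%) and 10 fell (21.3%, against 28.2%), with 2 past it each way (4.26%, against 7.44% upward and 11.3% downward), so the share that rose was near that of all genes. The named genes of each comparison were the pair with the largest change past the threshold. TMEM97, a sterol-binding protein of the cholesterol transport list, was at 34.5 and 34.0 CPM with R1881, 119 and 132 CPM with namoline, 103 and 85.8 CPM with TCE-5002 and 43.3 and 43.9 CPM with the combination. The elongase ELOVL5 was at 335 and 328 CPM, 879 and 946 CPM, 1110 and 882 CPM and 399 and 385 CPM in the same order. Both were high with each inhibitor alone and nearer to R1881 with the combination, where both libraries still lay above the R1881 pair. TMEM97 rose by 1.86 with namoline (edgeR adjusted p 8.93e-08) and 1.47 with TCE-5002 (edgeR adjusted p 1.4e-06), and ELOVL5 by 1.45 (edgeR adjusted p 1e-06) and 1.59 (edgeR adjusted p 8.18e-07).

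With the combination in C4-2, LIPA, the lysosomal acid lipase that frees cholesterol from its esters, fell from 52.3 and 50.7 CPM to 17.5 and 18.8 CPM (log2 fold change -1.53, edgeR adjusted p 9.1e-07). FADS3, a desaturase relative of FADS1 and FADS2, went from 38.8 and 46.1 CPM to 96.7 and 108 CPM (1.25, edgeR adjusted p 3.03e-05). Where the label was LNCaP, the lysosomal cholesterol carrier NPC2 went from 33.8 and 37.8 CPM to 88.6 and 96.7 CPM (1.43, edgeR adjusted p 2.51e-12), and AGPAT2, an acyltransferase of glycerolipid synthesis, from 56.5 and 60.6 CPM to 23.6 and 18.4 CPM (-1.43, edgeR adjusted p 4.37e-11). NPC2 moved the same way in C4-2, from 42.1 and 43.1 CPM with R1881 to 91.1 and 99.5 CPM with the combination. LIPA moved the opposite way where the label was LNCaP, from 54.9 and 52.6 CPM to 84.2 and 88.4 CPM. For FADS3 in the libraries labelled LNCaP, and for AGPAT2 in C4-2, the R1881 and combination pairs overlapped. The interaction was past the threshold downward for 16 of the 46 (34.8%, against 18.6% of all genes tested). By list these were 5 of 9 genes of fatty acid activation and glycerolipids, 4 of 7 of cholesterol transport and storage, 5 of 11 tested of further fatty acid synthesis, 2 of 6 linked to LXR, 0 of 6 isoprenoid branch genes and 0 of 7 genes of SREBP processing and sterol sensing. The lists are short, and differences between them were not tested.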

How the data were processed

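Polyadenylated RNA was sequenced from paired ends, and the authors trimmed reads with Trim Galore and used STAR to align to GRCh38. The deposited files hold raw counts per gene, made per the file headers by featureCounts 1.5.0-p1 with the Ensembl release 83 annotation and no strand option, 1 library per file and not normalised. Reads of overlapping genes and near-identical copies can therefore be lost. Symbols were matched by gene ID for 38 of 38 members and 47 of 47 other pathway genes. The members and gene lists were chosen with earlier results of these data known.

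CPM and RPKM were computed with TMM factors over all 12 libraries. Each comparison was fitted over all genes with edgeR 4.0.16 (limma 3.58.1, R 4.3.3): filterByExpr, TMM, the quasi-likelihood F test and Benjamini-Hochberg adjustment, group as the only term. C4-2 comparisons used its 8 libraries, the LNCaP comparison its 4, and comparisons between lines the 8 with R1881 or the combination. Past the threshold means 2-fold or more in either direction with an adjusted p-value under 0.05. Groups came from the library titles, since a treatment protocol in the labels describes siRNA. With 2 libraries per group, p-values lean on the spread shared across genes. All 38 members were named whatever their values; of the other pathway genes, the 2 with the largest change past the threshold against R1881 at 10 CPM or more were named. Alternatives were RLE scaling, no filter, the likelihood ratio test, DESeq2 1.42.0, a replicate block, only the 4 libraries compared, a GC offset, and each library left out. The steps were tested on simulated data. Promoters are from RefSeq. A few genes of these pathways are not reported here.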

Additional observations from a re-analysis of the deposited data

Results flagged for a closer look

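The response to the combination differed between C4-2 and the libraries labelled LNCaP, by a direct test of the difference (edgeR, adjusted p under 0.05 and at least 2-fold), in 8 of the 38 genes. The difference, C4-2 minus labelled LNCaP on the log2 scale, was 1.44 for MSMO1, 1.22 for CYP51A1, 1.16 for ELOVL6, 1.14 for MVD, 1.11 for ABCG1, 1.08 for NSDHL, 1.07 for ABCA1 and -1.31 for PMVK. PMVK and NSDHL had opposite signs in the lines, each past the adjusted p in both, though the C4-2 value of NSDHL lost it without R1881 replicate 1 (0.48, edgeR adjusted p 0.0576) and without combination replicate 2 (0.47, edgeR adjusted p 0.0548). CYP51A1 and MVD also had opposite signs, but their LNCaP values were less stable. That of CYP51A1 (-0.48, edgeR adjusted p 0.0255) lost its adjusted p under DESeq2 (0.0904), with the replicate block (0.0512), without either R1881 library and without combination replicate 2 (-0.21, edgeR adjusted p 0.387). That of MVD lost it under DESeq2 (0.0971), with no filter (0.0605), with the block (0.0596) and with any of the 4 libraries left out, and changed sign with the GC correction. The ABCA1 difference rested on levels from 1.26 to 5.60 CPM. Groups of 2 libraries are too small for a search for single libraries that stand apart.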

How the results depend on the processing

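No call past the threshold changed direction under any alternative. Of 1150 values of the 90 calls past the threshold, 1118 stayed past it, 23 slipped under 2-fold with their adjusted p kept and 9, all of ABCA1, lost it. A further 59 values gained a call. By adjusted p alone, with no 2-fold condition, the members counted were 29 for namoline, 19 for TCE-5002, 28 for the C4-2 combination, 25 for the combination against namoline, 30 against TCE-5002, 29 for the interaction, 24 for the LNCaP combination, 24 for the difference between lines and 32 for the lines with R1881, against 16, 7, 7, 12, 9, 16, 2, 8 and 13 past the threshold. Shares of all genes at the adjusted p alone are given above for the treatments against R1881 in the same line. For the other comparisons they are not given, so whether those counts exceed the share of all genes cannot be read from them. With no filter on low counts the LNCaP count was 1. With 1 library left out the counts ran from 14 to 20, 5 to 8, 7 to 8, 12 to 13, 8 to 13, 16 to 19, 1 to 2, 6 to 10 and 13 to 14 in that order. In the libraries labelled LNCaP the GC correction turned FASN from -0.34 to 0.29 and MVD from -0.32 to 0.22. Replicate numbers are shared between groups, but same-numbered libraries did not all deviate together (r from -0.037 to 0.475 within C4-2, 0.0676 within LNCaP, -0.544 to -0.0583 between lines), so the numbers were not taken as pairs. The difference between replicates did follow GC content in the same direction in every C4-2 group. Spearman rho was -0.552 with R1881, -0.488 with namoline, -0.80 with TCE-5002 and -0.239 with the combination. Where the label was LNCaP, rho was 0.195 with R1881 and 0.623 with the combination. The replicate block gave 15, 7, 7, 12, 9, 16, 2, 8 and 13 members. RLE scaling shifted the median of all genes by at most 0.06. Low levels limit ABCA1, and 2 libraries per group limit every test.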
